A study of Mus musculus with 3 samples.

Results

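Much of what is known about how estrogen receptor α (ERα) acts on DNA came from human breast cancer cells, in which a small set of genes has served for decades as the standard readout of the receptor. The mouse orthologues of 10 of these genes were examined here, by name: Tff1, Ctsd, Xbp1, Rara, Pdzk1, Igfbp4, Ret, Bcl2, Siah2 and Ebag9. They are 10 of the 22367 protein-coding genes annotated on the assembled chromosomes. For each of them, the ERα peaks of normal mouse mammary gland were taken whose midpoint lay within 100 kb of any annotated transcription start site (TSS). This rule took 22 of the 9607 peaks of replicate 1 and 15 of the 6819 peaks of replicate 2.

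The peaks come from chromatin immunoprecipitation followed by sequencing (ChIP-seq) of inguinal mammary glands of wild-type BALB/c mice. Mice had their ovaries removed at 6 weeks and, after 10 days of rest, received 100 ng of 17β-estradiol under the skin for 2 h, and each of 2 replicates pooled the glands of 6 mice. A single input library from estradiol-treated glands served as background for both, and ChIP-seq of vehicle-treated glands was not analysed here. The peaks therefore describe binding after estradiol and not a response to it. Each peak carries a score, which is 10 times the negative log10 of its MACS p-value. Scores start at 80 in both lists and rise with read depth, which the lists do not give, so they rank peaks within a list and are not amounts of bound receptor. Whole glands were used, in which fewer ERα-positive cells and less binding per cell cannot be told apart, and the lists hold no expression values with which the tissue could be checked against its marker genes.

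ERα is a nuclear receptor that binds DNA as a dimer after it has bound estrogen. Its classic site is the estrogen response element (ERE), in which the half-site GGTCA and its inverted copy TGACC stand on either side of any 3 bases. The receptor can also be held on DNA by other factors, such as AP1. Apart from EBAG9, these genes entered the literature as readouts in human cells because their transcripts or proteins respond to estrogen there. Several were traced to an ERE in or near the gene. The 10 genes encode regulators of transcription (XBP1, RARα), secreted and lysosomal proteins (TFF1, IGFBP4, cathepsin D), a receptor and a scaffold of the membrane (RET, PDZK1), regulators of cell survival and protein turnover (BCL2, SIAH2) and EBAG9. The name of EBAG9 stands for estrogen receptor binding site associated antigen, and it was isolated through a genomic fragment bound by the receptor.

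Within 100 kb of the 10 genes there were 3 estrogen response elements without mismatch, of which 1 lay in a peak. Another 72 had 1 mismatch, of which 7 lay in a peak. Those in peaks are shown first, with a few like sequences outside peaks as examples. Most elements outside peaks are not printed. All sequences shown are of the plus strand of NCBIM37, the assembly of mm9. Capitals mark the letters that match the ERE consensus, and small letters the spacer and mismatches. The sequences and their mismatches are those of the reference strain, C57BL/6J, and not of the BALB/c mice used, whose own sequence was not analysed here. The following 5 elements had at most 1 mismatch and lay in regions where peaks of both replicates overlapped by at least 1 bp, here called shared regions. The first of them has no mismatch.
Ebag9 promoter, chr15:44451119-44451131: GGTCAgggTGACC
Ebag9, intron of Sybu, chr15:44506603-44506615: GGcCActgTGACC
Ebag9, intron of Sybu, chr15:44530890-44530902: GGTCAgctTGACa
Rara, intron, chr11:98816933-98816945: GGcCAcggTGACC
Xbp1, intron of Ccdc117, chr11:5433177-5433189: GGgCAatgTGACC
Another 3 elements, each with 1 mismatch, lay in peaks of replicate 1 that had no partner in replicate 2.
Bcl2, intron, chr1:108553432-108553444: GGTCAgtcTGACt
Tff1, intron of Abcg1, chr17:31214879-31214891: GGaCAgcgTGACC
Xbp1, intergenic, chr11:5392904-5392916: GGcCAcacTGACC
The last 4 sequences lay in no peak of either list. They are both remaining elements without a mismatch at the 10 genes, and the best matches in the promoters of Bcl2 and Tff1.
Bcl2, intergenic, chr1:108659071-108659083: GGTCAccaTGACC
Ebag9, intron, chr15:44467741-44467753: GGTCAtttTGACC
Bcl2 promoter, chr1:108611374-108611386: GGTCAcatgGACC
Tff1 promoter, chr17:31302430-31302442: GGaCAagaTGACa
With positions counted from 1 at the left of the consensus, the mismatch was T3C in the Rara element and in the nearer Sybu element, T3G in the Ccdc117 element and C13A in the farther Sybu element.

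Of the 10 genes, 5 (50%) had a shared region within 100 kb. These were Xbp1, Rara, Igfbp4, Tff1 and Ebag9. The share among all protein-coding genes was 38.1% (8524 of 22367, exact Clopper-Pearson 95% interval 37.5% to 38.7%, counting error only). With 10 genes, each one moves the share by 10 percentage points, and no test was made on a list chosen by name. Bcl2 had a peak in replicate 1 alone. Ctsd, Pdzk1, Ret and Siah2 had no peak within 100 kb in either list. With single lists, 6 of the 10 genes had a peak in replicate 1, against 49.6% of all protein-coding genes, and 5 in replicate 2, against 40.3%.

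Of the bound genes, Tff1 held a single shared region and the others held several. Among the 10 genes, 4 had at least 3 shared regions within 100 kb, compared with 8.88% of protein-coding genes, and with at least 4 there were 3, compared with 4.72%. These were Xbp1 with 3, Igfbp4 with 4, Ebag9 with 5 and Rara with 6. Rara and Igfbp4 are neighbors on chromosome 11 and 4 regions lay within 100 kb of both, so their counts are not independent. In all there were 15 different shared regions, of the 6250 in the lists. A shared region was found for 31.2% of protein-coding genes with 1 TSS and for 43.6% of those with more, which also have a wider window. With only the most 5′ TSS of each gene, the share over all protein-coding genes was 36.4% instead of 38.1%. What makes the shares differ was not tested. Rara has 8 annotated TSSs over 37054 bp, whereas Ebag9 and Tff1 have 1 each.

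**Figure D1:**
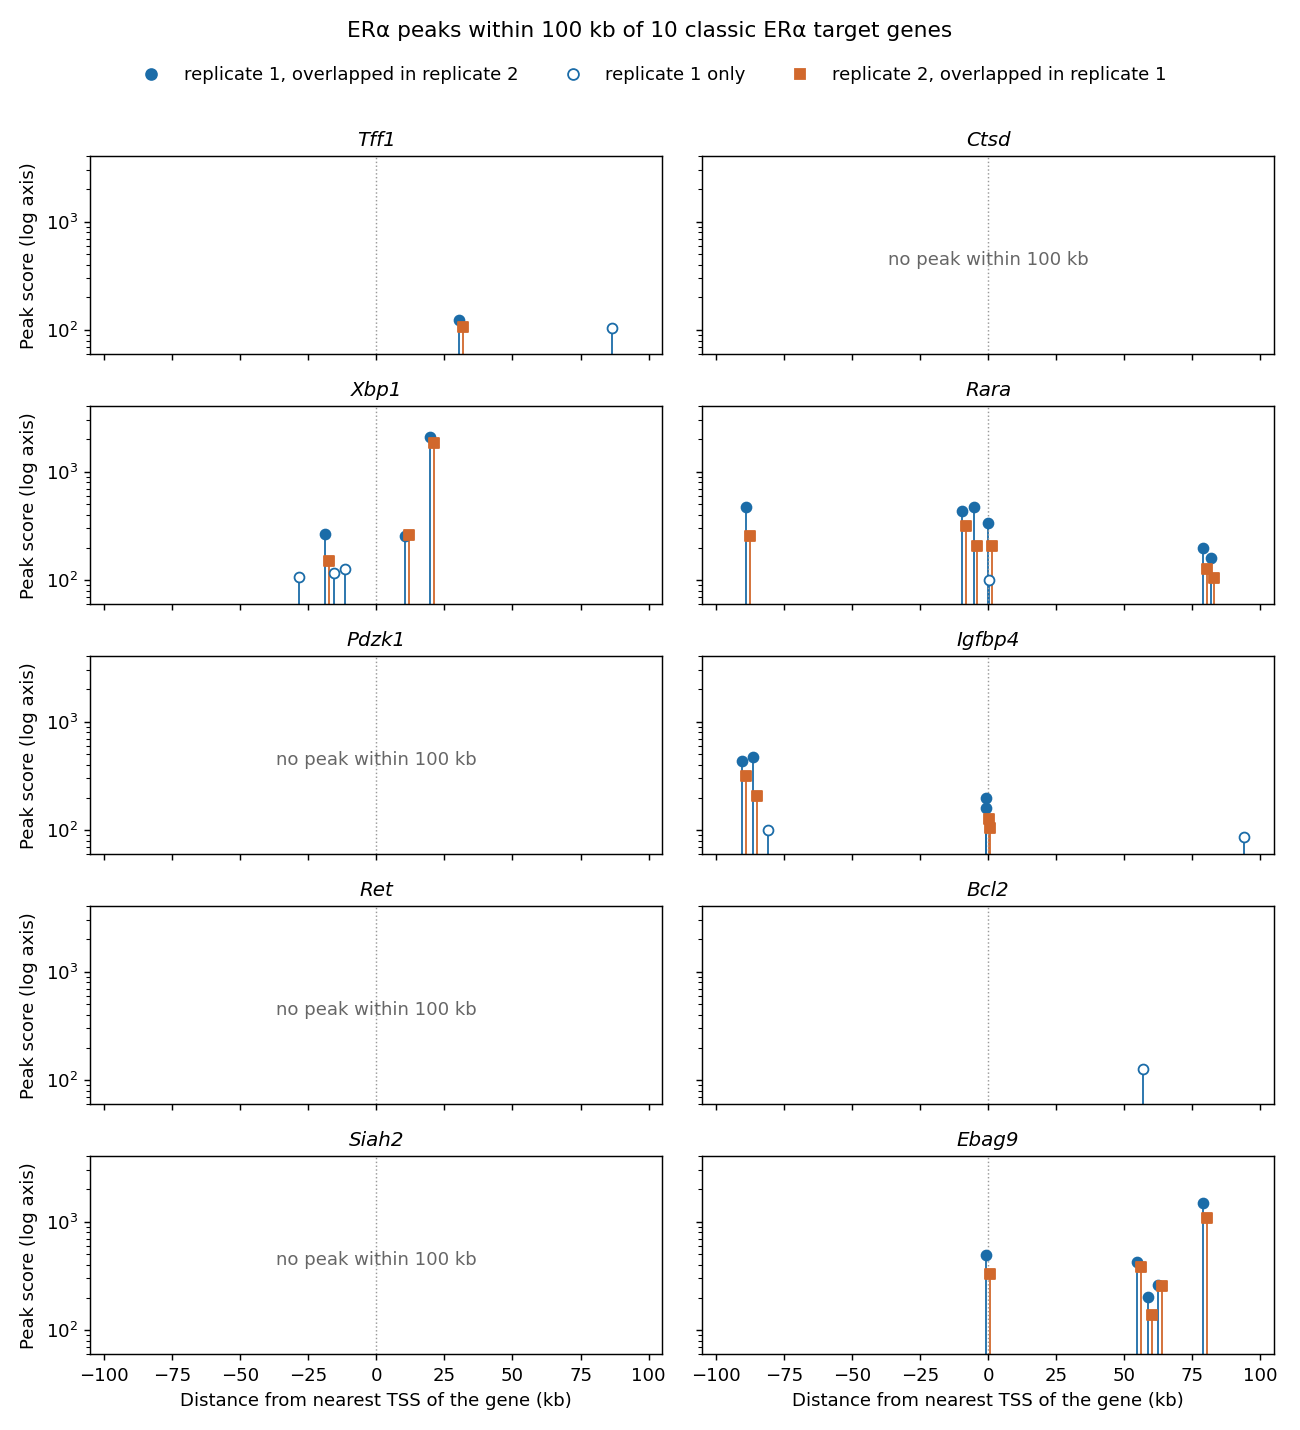
Peaks of replicate 1 (circles) and replicate 2 (squares) within 100 kb of each gene, with the distance from the nearest TSS of the gene in kb on the x axis (negative is upstream) and the peak score on a log y axis, open circles for replicate 1 peaks that no replicate 2 peak overlapped, and the replicates' symbols set slightly apart. Xbp1 has the highest scores, Ebag9, Rara and Igfbp4 have several regions, and Ctsd, Pdzk1, Ret and Siah2 have none.

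Xbp1 encodes a transcription factor of the unfolded protein response. The gene (ENSMUSG00000020484) lies on the plus strand of chromosome 11 from 5420662 to 5425896, and a peak of very high score lay downstream of it. This region, from 5441851 to 5442933, had a score of 2101 in replicate 1 and 1842 in replicate 2, rank 96 of 9607 and rank 62 of 6819. It was the highest-scoring region at any of the 10 genes, and a shared region with a score of at least 1000 in both lists was found within 100 kb of 3.10% of protein-coding genes. Measured from the nearest Xbp1 TSS, the midpoint lay at 20466 bp, but it lay at -202 bp from a TSS of Ccdc117, the next gene, so that distance alone assigns it to Ccdc117.

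The other regions at Xbp1 had lower scores. A region in an intron of Ccdc117 (5432904 to 5433395) had scores of 257 and 259 and was 11223 bp downstream of the nearest Xbp1 TSS. It was the only one of the 15 regions in which replicate 2 scored above replicate 1, and it held the 1-mismatch ERE printed above. Upstream, an intergenic region (5402329 to 5402875) with scores of 265 and 150.3 lay at -18060 bp. Peaks of replicate 1 alone lay at -27781, -14662 and -10662 bp with scores of 106, 116 and 127. For the last of these an Xbp1 TSS was the nearest of any gene, which was true of no shared region at this locus, although among protein-coding genes Xbp1 was nearest to the upstream one.

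Rara encodes retinoic acid receptor α, a nuclear receptor for vitamin A derivatives. The gene (ENSMUSG00000037992, chromosome 11, 98789132 to 98836256, plus strand) had 3 shared regions in its own introns. The first (98801245 to 98801838) scored 333 and 207 and lay 515 bp downstream of a TSS at 98801026. That TSS is annotated for a processed transcript without a coding sequence, and from the most 5′ TSS of Rara the region was 12409 bp downstream. The second (98812515 to 98813358) scored 429.95 and 316, at -8790 bp from an internal TSS. The last (98816597 to 98817230) scored 469 and 204, at -4813 bp from the same TSS, and held the Rara element with T3C printed above. A peak of replicate 1 alone, with a score of 99.4, lay 893 bp downstream of this TSS.
Among the intronic regions of Rara, replicate 1 ranked the ERE-containing one first and replicate 2 ranked it last. A further region at -88185 bp, with scores of 469 and 257, lay in an intron of Rapgefl1 and 2848 bp from its TSS. The other regions counted for Rara were those of Igfbp4.

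Igfbp4 encodes a secreted protein that binds insulin-like growth factors and keeps them from their receptor. Both shared regions closest to it lay in introns of the gene (ENSMUSG00000017493, chromosome 11, 98902558 to 98913969, plus strand). One (98905560 to 98906138) scored 197 in replicate 1 and 128 in replicate 2, and the other (98908289 to 98908831) 159 and 104. They lay at -231 and -65 bp from internal TSSs of processed transcripts, and at 3291 and 6002 bp downstream of the most 5′ TSS. Whether they are called promoter-proximal thus depends on the annotation used. These were among the regions of lowest score at the 10 genes, and their best ERE-like sequences had 3 mismatches. At least such a match was found in 94.7% of all promoters of 1000 bp, which are longer than these regions of 579 and 543 bp. A replicate 1 peak with a score of 87.2 at 94488 bp downstream had no partner. The last 2 intronic regions of Rara, at -89622 and -85645 bp, and the unpartnered Rara peak of replicate 1, at -79939 bp, were also within its limit.

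Tff1 encodes a trefoil peptide secreted by mucous epithelia, and in human cells an ERE in its promoter is the textbook example of a classic site. In the mouse gland no peak lay at the Tff1 promoter (ENSMUSG00000024032, chromosome 17, 31298341 to 31301998, minus strand). The best ERE-like sequences in the 1000 bp before its TSS had 2 mismatches, at -438 and -672 bp, and neither lay in a peak. A match with at most 2 mismatches was present in 31.8% of all promoters of this length.
The closest region, from 31270656 to 31271118, was intergenic and 31111 bp downstream of the Tff1 TSS. Its scores of 124 and 108 were low, with ranks of 6287 in replicate 1 and 5131 in replicate 2, and its midpoint lay at -4296 bp from a TSS of Tff3, another trefoil gene of the same cluster. A replicate 1 peak with a score of 104 in an intron of Abcg1, 87236 bp downstream, held the element with T3A printed above.

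Ctsd encodes cathepsin D, a lysosomal protease. It was the gene farthest from any shared region (ENSMUSG00000007891, chromosome 7, 149557053 to 149573943, minus strand). The closest one, at -654369 bp, had scores of 145 and 118 and was nearest to Cd81. Of all protein-coding genes, 83.5% had a closer shared region. The sequence within 100 kb of the Ctsd TSSs held 12 EREs with 1 mismatch and none without, and none of the 12 lay in a peak. Over the genome, only 2.47% of EREs with 1 mismatch lay in peaks of both replicates.

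Ret encodes a receptor tyrosine kinase for ligands of the glial cell line-derived neurotrophic factor family. Its closest shared region was at -208723 bp (ENSMUSG00000030110, chromosome 6, 118101766 to 118147762, minus strand), in an intron of Bms1, with scores of 132 and 138. A replicate 1 peak at -178847 bp with a score of 83.7 had no partner. Pdzk1 encodes a scaffold protein with PDZ domains at the apical membrane (ENSMUSG00000038298, chromosome 3, 96633207 to 96674849, plus strand). Its closest shared region lay just beyond the limit, 108213 bp downstream in an intron of Gja5, with scores of 85.6 and 80.6, near the lowest score in either list. Within 100 kb there were 7 EREs with 1 mismatch at Ret and 2 at Pdzk1, none of them in a peak, like most such elements in the genome.

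Bcl2 encodes an inhibitor of apoptosis. The gene (ENSMUSG00000057329, chromosome 1, 108434755 to 108610851, minus strand) is 176097 bp long, and a single peak lay in it. This peak, from 108553209 to 108553724 in an intron and 57385 bp downstream of the TSS, had a score of 126 in replicate 1 and no partner in replicate 2. It held the element with C13T printed above. The closest peak of replicate 2 was 313120 bp away. The exact ERE at -48226 bp and the promoter element with T9G at -529 bp lay in no peak. Of all promoters of 1000 bp, 2.95% hold an ERE with at most 1 mismatch. Siah2 encodes a ubiquitin ligase (ENSMUSG00000036432, chromosome 3, 58478860 to 58496322, minus strand). Its closest shared region was 390136 bp downstream with scores of 189.78 and 159, and 73.3% of protein-coding genes had a closer one.

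Ebag9 encodes a protein of the Golgi apparatus that was isolated in humans through a genomic fragment bound by the estrogen receptor. In the mouse gland its promoter was bound in both replicates (ENSMUSG00000022339, chromosome 15, 44451187 to 44472570, plus strand). The shared region there (44450792 to 44451486) scored 491 and 330.2, with ranks of 1496 and 1594, and its midpoint was at -48 bp from the only annotated TSS. It was the closest region to a TSS among the 10 genes, and 0.166% of protein-coding genes had a closer one. A shared region from 1000 bp before to 400 bp after the most 5′ TSS was found for 0.979% of protein-coding genes, and among the 10 genes for Ebag9 alone. When internal TSSs were counted the share was 1.58%, and Igfbp4 met the criterion too.

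The bases before the Ebag9 TSS are printed with the exact ERE in capitals. It was centred at -62 bp from the TSS and at -14 bp from the midpoint of the region.
Ebag9 promoter, chr15:44450989-44451186, plus strand: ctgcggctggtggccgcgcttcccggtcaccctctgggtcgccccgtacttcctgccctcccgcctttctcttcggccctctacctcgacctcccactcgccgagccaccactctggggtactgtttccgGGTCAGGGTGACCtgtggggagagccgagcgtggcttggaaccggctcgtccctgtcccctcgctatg
An ERE without mismatch in the 1000 bp before the most 5′ TSS was rare, found in 33 of 22367 protein-coding genes (0.148%), and in 9 of these 33 it lay in peaks of both replicates.

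The other regions at Ebag9 formed a group in introns of Sybu, the neighboring gene. Their midpoints were at 55458, 59420, 63193 and 79589 bp downstream of the Ebag9 TSS. The farthest one, from 44530273 to 44531279, had the highest scores, 1486 in replicate 1 and 1085 in replicate 2, with ranks of 242 and 273, and held the 1-mismatch ERE with C13A. A Sybu TSS was nearest to it, at 53228 bp. For the other 3 intronic regions an Ebag9 TSS was the nearest of any gene, with scores of 422 and 384, of 200.5 and 138, and of 261 and 254 in the order of their distance. The next peaks lay 101250 bp downstream in replicate 1, with a score of 195, and 101301 bp downstream in replicate 2, with a score of 89.0, just outside the limit.

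Over the 15 shared regions, the lower of both scores ranged from 104 to 1842 with a median of 254, compared with a median of 168 over all 6250 shared regions. In 14 of the 15, replicate 1 gave the higher score, as it did in most of all shared regions. The ratio of replicate 1 to replicate 2 ranged from 0.994 to 2.30, with a median of 1.46 compared with 1.31 over all shared regions. Both replicates put the region just upstream of Ccdc117 first and the farthest Ebag9 region next. Of the 22 peaks of replicate 1, 7 had no partner, with scores of up to 127, and each of the 15 peaks of replicate 2 had one. The whole lists of 9607 and 6819 peaks gave 6250 shared regions. Peaks without a partner were thus more numerous in replicate 1 there too, and are not particular to these genes. By distance to the nearest gene of any kind, 8 of the 15 regions belonged to 3 of the 10 genes, namely to Ebag9, Rara and Igfbp4, and 11.8% of protein-coding genes were nearest to a shared region in this way. Of the midpoints, 11 lay in introns, 4 in intergenic sequence and none in an exon of a protein-coding gene. The same shares over all shared regions are not given here, so these counts only describe the regions.

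**Figure D2:**
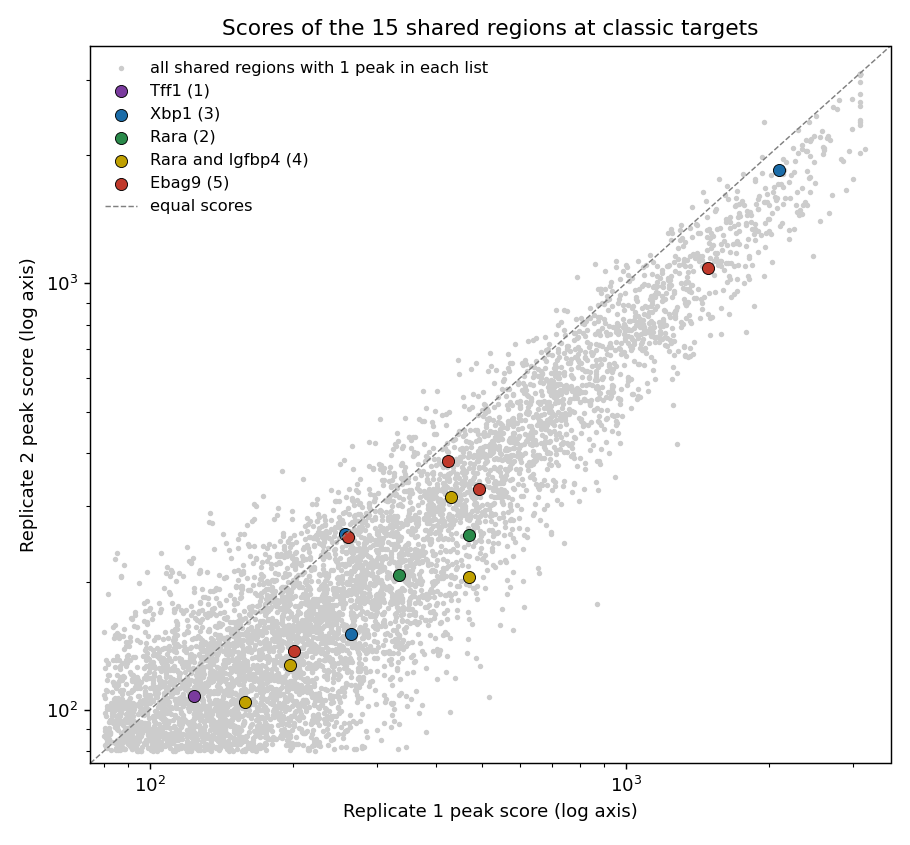
Score in replicate 1 (x axis) against score in replicate 2 (y axis), both on log axes, for the 15 shared regions near the 10 genes (colored by gene) and for all shared regions with 1 peak in each list (gray). The dashed line marks equal scores, below which 14 of the 15 regions lie. Over all shared regions the median ratio of replicate 1 to replicate 2 was 1.31.

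**Figure D3:**
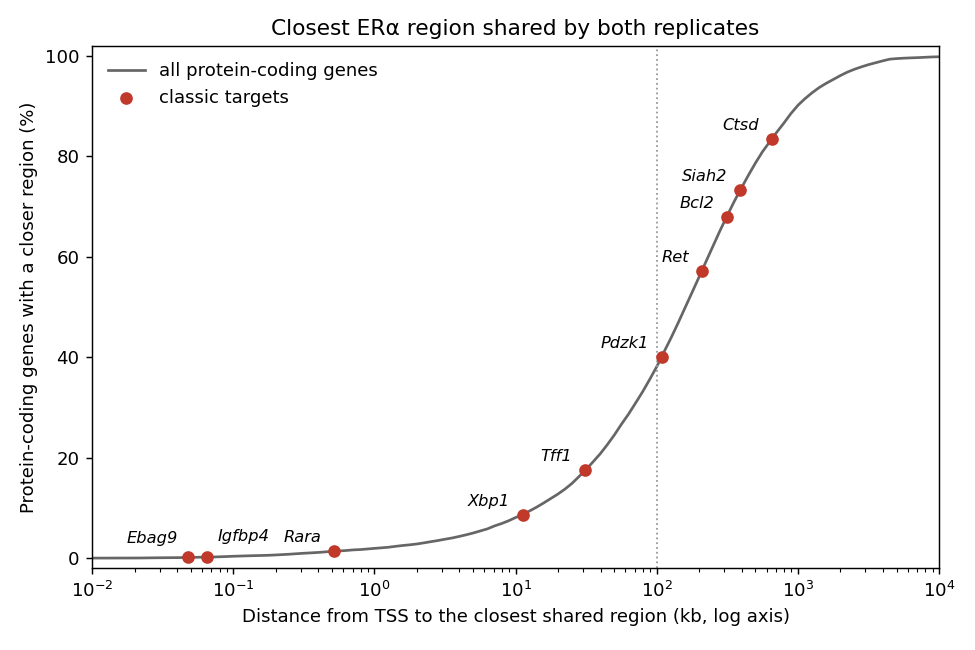
Distance from the nearest TSS to the closest shared region in kb (log x axis) against the percent of protein-coding genes with a closer one (y axis), as a line for all protein-coding genes and as points for the 10 genes. The dotted line marks 100 kb, and the points run from Ebag9 at 0.048 kb to Ctsd at 654 kb.

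The closest shared regions lay at very different distances from the 10 genes. Over protein-coding genes the median distance was 159.6 kb. Ebag9, Igfbp4 and Rara were at 0.166%, 0.219% and 1.37% of this distribution, Xbp1 and Tff1 at 8.68% and 17.5%, Pdzk1 at 40.1%, and Ret, Bcl2, Siah2 and Ctsd at 57.2% to 83.5%.

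To describe the sequences further, 400 bp around the midpoint of each region was searched on both strands. Of the 15 regions, 5 (33.3%) held an ERE of 1 mismatch or none, against 31.1% of all shared regions and 1.10% of windows 5 kb to each side of them. An ERE without mismatch was present in 1 of the 15 (6.67%) against 6.60%, and with at most 2 mismatches in 10 (66.7%) against 67.4% and 15.5% of the flanking windows. In the 5 regions with an ERE of at most 1 mismatch, the lower of both scores ran from 204 to 1085. In those without one it ran from 104 to 1842, but only the Xbp1 region of 1842 exceeded 316. The ranges overlapped. With scores of at least 200 in both lists 10 regions remained, among them all 5 with such an ERE. The difference in score was not tested. The FOXA1 consensus, TATTTAC or TGTTTAC, was present in 2 regions, both at Xbp1, or 13.3% against 14.0%. The AP1 consensus, TGACTCA or TGAGTCA, the SF1 consensus, CAA followed by GGTCA, and the PAX2 consensus GTCACG were found in 0 of the 15 regions, which allows a share of up to 20%. In all shared regions these shares were 16.7%, 9.34% and 9.16%, all within that limit. The limit is approximate, as 3 counts over 15 regions at a 95% level. It takes the regions as independent, although several lie in introns of the same gene. The SF1 consensus ends in the ERE half-site, and the PAX2 consensus can overlap it by 4 bases.

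**Figure D4:**
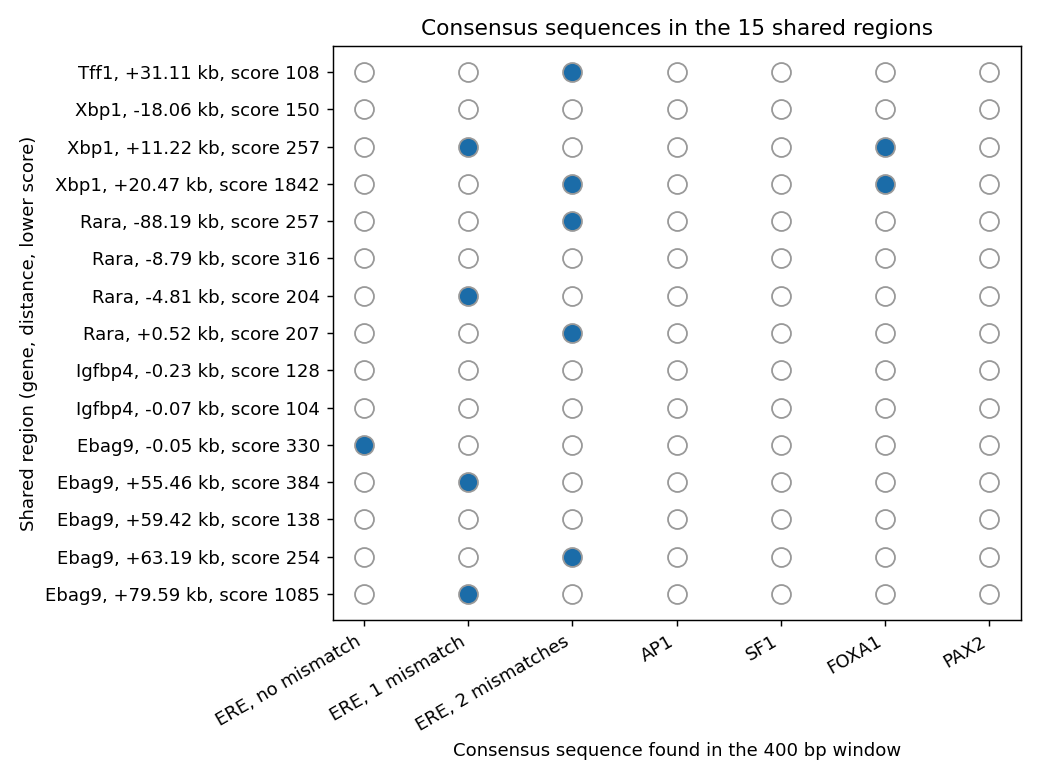
Consensus sequences in the 400 bp window of each of the 15 shared regions (rows, named by the closer of the genes, with the signed distance to its TSS in kb and the lower of both scores). Filled circles mark a match, and for the ERE only the column of the best match is filled. An ERE with at most 1 mismatch is present in 5 rows, FOXA1 in 2 and AP1, SF1 and PAX2 in 0.

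The search was also turned around, starting from the sequence rather than from the peaks. The genome held 2353 EREs without mismatch, of which 17.9% lay in peaks of both replicates, and 70083 with 1 mismatch, of which 2.47% did. Within 100 kb of the 10 genes there were 3 without mismatch, of which only the one in the Ebag9 promoter was in a peak, and 72 with 1 mismatch, of which 4 (5.56%) were in peaks of both replicates and 7 in a peak of replicate 1. Genes with equal numbers of 1-mismatch elements could differ in their number of shared regions. Rara and Ctsd had 12 elements each, with 6 shared regions at the former and none at the latter. Ebag9 had 11 elements and 5 regions, Tff1 9 and 1, Igfbp4 8 and 4, and Xbp1 3 and 3. No shared region was found for Bcl2 with 8 elements, Ret with 7, Siah2 with 5 and Pdzk1 with 2. Whether both counts rise together over the 10 genes was not tested.

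For comparison, 30 other genes known to respond to estrogen were counted in the same way. Of these, 19 (63.3%) had a shared region within 100 kb, against 38.1% of all protein-coding genes. In the proximal window 3 had one, against 1.58% of all protein-coding genes with internal TSSs counted. The highest scores were those of Pgr, Fos and Gata3, where the lower of both scores was 2059, 1334 and 1311. The list was chosen by name with earlier results of these data known, and it includes genes which the study itself examined in these glands. Its differences from the 10 genes and from all protein-coding genes were not tested.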

How the data were processed

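Per the labels and the study's methods, single-end reads of 51 nt were aligned by the authors to mm9 with BWA. Peaks were called by MACS per replicate, using the input as control and a p-value cutoff of 1e-08. The MACS version is not given in the sources used here. The score deposited with each peak multiplies the negative log10 p-value by 10. No reads or read totals are in the lists, so depth is unknown from them.

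Midpoints of peaks and shared regions were related to TSSs of all transcripts in GENCODE version M1 (NCBIM37, with the chromosome lengths of mm9). Consensus searches used 400 bp windows, flanks 5 kb away and the 1000 bp before the most 5′ TSS. Peak overlap, distance to TSSs, the nearest gene and the search for EREs with 1 mismatch were tested on simulated data. The searches for the other consensus sequences were not. The 10 genes and the other lists were chosen with earlier results of these data known. All 10 genes were named, each with its closest and highest-scoring regions. Elements outside peaks were added after the values were seen. With 2 replicates of 1 group no test was made. Alternatives changed the score minimum, overlap, TSS set, distance limit, window, mismatches and replicate. The tools were samtools 1.23.1, and Python 3.11.15 with matplotlib 3.10.9, pysam 0.24.0, numpy 2.4.6, scipy 1.17.1 and pandas 2.3.3. The sequence of 1 region is not reported here.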

Additional observations from a re-analysis of the deposited data

How the results depend on the processing

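The count of 5 genes with a shared region was 4 or 5 under each alternative score, overlap, TSS set and distance. It fell to 3 (Ebag9, Rara and Igfbp4) when a region was counted only for the nearest gene. Tff1 was lost with scores of at least 200 in both lists and with a limit of 20 kb, and Bcl2 was gained with replicate 1 alone. With single replicates, the genes numbered 5 to 6, the regions 15 to 22, the regions nearest to one of the genes 8 to 11, those with an ERE of at most 1 mismatch 5 to 8, and the share of all protein-coding genes was 40.3% to 49.6%. That share was 33.8% and 20.9% at scores of at least 100 and 200, 35.2% with midpoints within 100 bp, 24.5% and 12.8% at limits of 50 and 20 kb, 36.4% with the most 5′ TSS and 37.4% with TSSs of coding transcripts. At 20 kb 8 regions remained, and at scores of at least 200 a member was nearest to 5. Regions with an ERE numbered 1 with no mismatch, 10 with at most 2, and 2 with midpoints within 100 bp. With the most 5′ TSS, the closest region lay 12487 bp from Xbp1, 12409 from Rara, 112155 from Pdzk1 and 396499 from Siah2. For Igfbp4 another region became the closest. It was no longer the one at -65 bp from an internal TSS, but the one 3291 bp downstream of the most 5′ TSS. No paired analysis was possible because the ChIP-seq samples form 1 group. A missing peak shows only that no score reached 80 at the depth of these libraries.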

Other observations

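The closest peak to Ctsd in replicate 1, from 148944652 to 148945157 on chromosome 7, had a score of 103 and no partner in replicate 2. It was 623668 bp downstream of the nearest Ctsd TSS and at -29973 bp from a TSS of Muc5ac, a gene for a secreted mucin, and held an ERE without mismatch.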
